A study of Homo sapiens with 24 samples.

Results

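The genes described here are the 10 members of the MYC-MAX network that were named for study: MYC and MYCN, their shared partner MAX, the MAX-binding repressors MNT, MXI1, MXD3, MXD4 and MGA, and the parallel pair MLX and MLXIP. They were chosen by symbol from the 19692 gene entries of both tables, and all 10 symbols were present. The libraries came from HEK293, an established human embryonic kidney line, in 2 versions: a control line that expresses only the Flag/HA tag, and a line that overexpresses ZC3H7B (ZC3H7B-OE), an RNA-binding protein. Both versions received 100 µM 4-thiouridine and 1 µg/mL doxycycline for 24 h and were then chased with 10 mM uridine for 0, 2, 4 or 6 h, with 3 libraries in each of the 8 groups. In this assay, catabolic SLAM-seq, 4-thiouridine enters new RNA and is read as a T-to-C conversion, so that reads with conversions (labelled reads) stand for RNA made during the pulse and unlabelled reads at later times include RNA made during the chase. The labels do not say whether either line is a single clone or whether replicates were separate cultures, and the p-values then describe only how far these libraries spread, which may be technical.

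MYC is a basic helix-loop-helix leucine zipper transcription factor that binds E-box DNA as a heterodimer with MAX and activates genes of growth, ribosome production and metabolism. MNT and the MXD proteins, of which MXI1 is one, compete for MAX and recruit SIN3-HDAC corepressors to the same motif, while MGA joins MAX to a Polycomb-like repressor complex. MLX is the partner in a parallel branch, in which MLXIP (MondoA) responds to glucose-derived metabolites and activates TXNIP and ARRDC4. MYC mRNA is well known for its short life.

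The promoter windows of the network's own genes were searched for the E-box, the DNA element that these proteins bind. RefSeq promoters (GRCh38.p14, 250 bases before to 50 bases after the start site) were matched for 9 of the 10 genes, all but MYC. These 9 genes had 14 promoters. The palindromic E-box CACGTG was found in 3 of the 14, 1 each of MXD4, MNT and MLX. It was found in 9.66% of the promoters of tested genes and 7.26% of all RefSeq promoters of that length. The 30-base stretches around it are printed 5′ to 3′ on the gene's own strand, with the E-box in capitals, since these are the sites a MYC-MAX or MNT-MAX dimer could read. Binding was not measured in these libraries. The MXD4 stretch lies at chr4:2262330-2262359 on the minus strand, the MNT stretch at chr17:2401236-2401265 on the minus strand and the MLX stretch at chr17:42567038-42567067 on the plus strand.
MXD4: gggccgggccacCACGTGctgttgctaagc
MNT: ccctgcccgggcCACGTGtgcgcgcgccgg
MLX: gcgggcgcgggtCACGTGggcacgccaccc

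Depth ran from 1502068 to 3676254 reads per library, of which 830574 to 1579744 were labelled. Depth went with chase time in both lines. It was 1502068 to 2053311 reads in the 0 and 2 h libraries and 2480380 to 3676254 in those of 4 and 6 h. Labelled reads made up 76.7% of a control library and 74.8% of a ZC3H7B-OE library at the end of the pulse (means of 3 libraries). The shares were 75.7% and 71.8% after 2 h of chase, 47.7% and 45.5% after 4 h, and 29.9% and 29.6% after 6 h. One library stood apart: control 0 h replicate 3 had a read in 11032 genes, against 12005 to 13201 in the others, and a TMM scaling factor of 0.726, against 0.926 to 1.08. Kidney epithelial markers summed to 66.1 to 119 CPM (reads scaled by library size) in control and 57.5 to 105 CPM in ZC3H7B-OE, with none of the 6 at 0, while PTPRC, CD3E, COL1A2, DCN, CDH5 and VWF, markers of leukocytes, fibroblasts and endothelium, had no read. All 3 neuronal markers were also read, at 66.0 to 146 CPM in control and 71.3 to 161 CPM in ZC3H7B-OE. ZC3H7B itself measured 269 ± 74.0 CPM in control and 328 ± 75.0 CPM in ZC3H7B-OE (SD, n = 12 each), a log2 difference of 0.28 (SE 0.08, edgeR adjusted p = 0.00347), and its labelled odds were lower by 1.42 log2 units in ZC3H7B-OE. At single times ZC3H7B was called at 0 h (0.56, adjusted p = 0.00695) and not after 2 h (-0.09, 0.806), 4 h (0.35, 0.126) or 6 h (0.32, 0.169), so the higher level that names the line was not measured in the 2 h libraries. In bulk libraries such as these, fewer cells that carry an mRNA and less of it per cell cannot be told apart.

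Of the 10 members, 7 had enough reads to be tested: MYC, MNT, MXI1, MXD3, MXD4, MLX and MLXIP. Averaged over the 4 times, MLXIP, MNT and MXD3 were higher in ZC3H7B-OE, MLX was lower, and MYC, MXI1 and MXD4 did not pass the test. Thus 4 of 7 members were called at an adjusted p under 0.05 (edgeR's quasi-likelihood test with Benjamini-Hochberg adjustment over all 10038 entries tested), where 45.8% of all entries were called, 20.4% higher and 25.4% lower. The members' median log2 difference was -0.03, against 0.01 over all entries. A share of 4 in 7 is thus near the background, and the result lies in the single genes. DESeq2 and limma-voom also called 4 members each. Among the called members, the reads counted for MXD3 and MLX are uncertain, and so are their values in what follows. At 0 h 2.76% of MXD3 reads and 44.1% of MLX reads were labelled, against a median of 87.2% over genes. Exons of both overlap coding genes on the opposite strand, as described below.

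**Figure D1:**
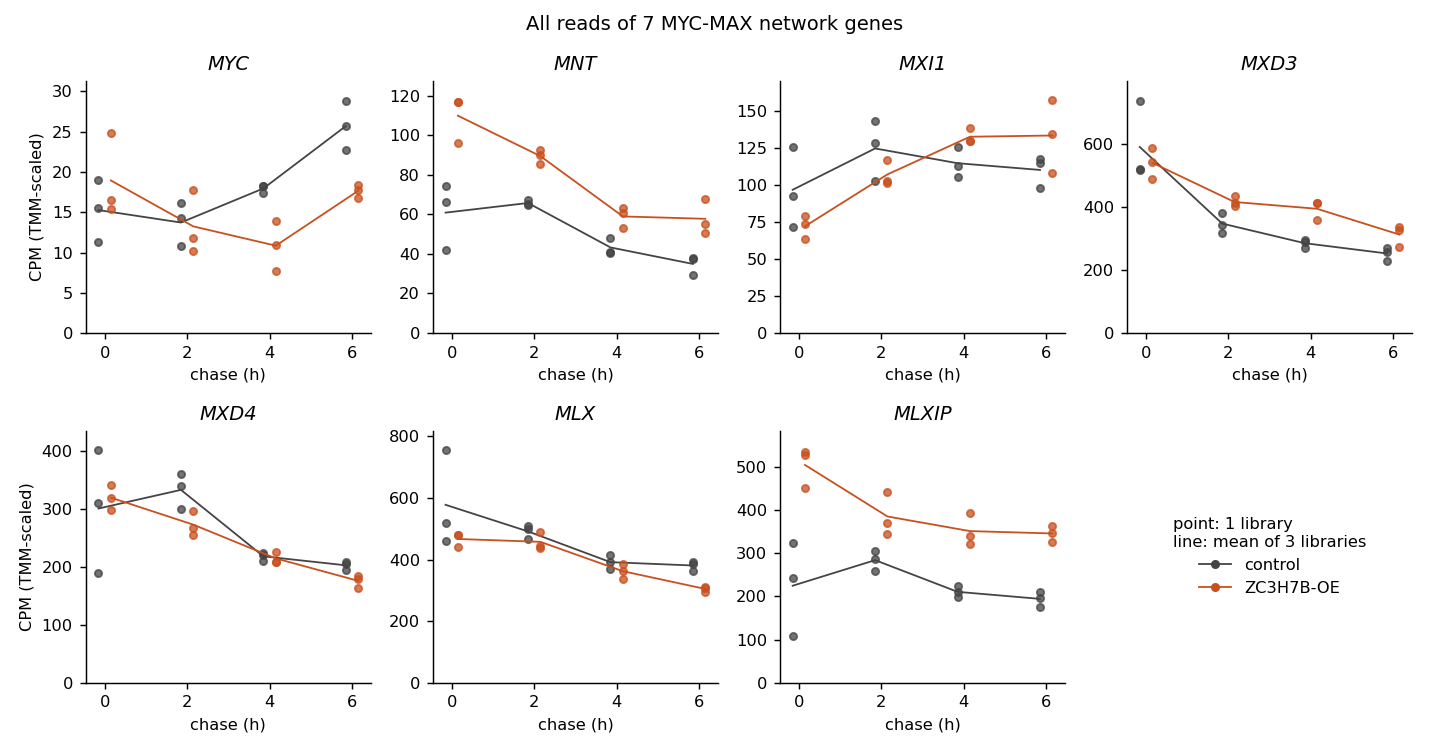
All reads of the 7 tested members in CPM (vertical axes start at 0) against hours of chase, with 1 point per library and lines through the means of 3 libraries, control in grey and ZC3H7B-OE in orange. The ZC3H7B-OE points of MLXIP and MNT lie above all control points of the same time, and the MYC points of the 2 lines part at 4 and 6 h.

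MLXIP, the glucose-responsive partner of MLX, had the largest difference among the tested members. Its control libraries held 242, 322 and 109 CPM at the end of the pulse, 286, 260 and 306 after 2 h of chase, 210, 223 and 199 after 4 h, and 176, 210 and 196 after 6 h. The ZC3H7B-OE libraries held 527, 451 and 534 CPM at the end of the pulse, 343, 443 and 369 after 2 h of chase, 393, 339 and 321 after 4 h, and 327, 347 and 363 after 6 h. Every ZC3H7B-OE library was thus above every control library of its time, and the low value of 109 CPM came from control 0 h replicate 3. How many of all entries separated like this was not counted, for MLXIP or for the members below. Over all times MLXIP averaged 228 ± 59.5 CPM in control and 396 ± 75.1 CPM in ZC3H7B-OE (SD, n = 12), a 1.73-fold difference (log2 0.79, SE 0.10, edgeR adjusted p = 4.33e-07). Only 3.13% of tested entries had a higher log2 difference. At single times MLXIP was called at 0 h (log2 1.15, adjusted p = 0.00012), at 4 h (0.74, 0.0117) and at 6 h (0.83, 0.00618), and not at 2 h (0.44, 0.205). The 0 h call was lost when the 6 libraries of 0 h were fitted alone (adjusted p = 0.0685), and the 4 h call without ZC3H7B-OE 4 h replicate 1 (0.052).

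MNT, the broadly expressed MAX partner that antagonises MYC at E-boxes, was also higher in ZC3H7B-OE. Control libraries gave 66.1, 74.2 and 42.2 CPM at the end of the pulse, 65.2, 64.6 and 67.3 after 2 h of chase, 41.2, 48.0 and 40.7 after 4 h, and 29.4, 37.7 and 37.6 after 6 h. In ZC3H7B-OE the values were 95.8, 117 and 117 CPM at the end of the pulse, 85.5, 92.6 and 90.0 after 2 h of chase, 63.0, 52.9 and 60.9 after 4 h, and 67.8, 55.0 and 50.4 after 6 h. The lines did not overlap at any of the 4 times, and the level fell along the chase in both. The mean was 51.2 ± 15.2 CPM in control and 79.0 ± 23.9 CPM in ZC3H7B-OE (SD, n = 12), 1.53-fold apart (log2 0.61, SE 0.09, edgeR adjusted p = 1.33e-06). MNT was called at 0 h (log2 0.83, adjusted p = 0.000736) and 6 h (0.72, 0.00613), and missed the threshold at 2 h (0.44, 0.131) and 4 h (0.45, 0.0844), where DESeq2 called it (0.0453). Fitted on the 6 libraries of 0 h alone, its adjusted p was 0.0677, and without control 6 h replicate 1 its 6 h value was 0.61 with an adjusted p of 0.0563.

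The 3 MXD-type repressors did not move together, with the reads of MXD3 uncertain. MXD3, a MAX partner linked to proliferating cells, was higher in ZC3H7B-OE by 0.23 log2 units over all times (SE 0.07, edgeR adjusted p = 0.00566). Its control libraries read 518, 515 and 735 CPM at the end of the pulse, 344, 379 and 317 after 2 h of chase, 269, 289 and 296 after 4 h, and 257, 229 and 270 after 6 h. Those of ZC3H7B-OE read 488, 587 and 543 CPM at the end of the pulse, 411, 401 and 433 after 2 h of chase, 357, 412 and 412 after 4 h, and 272, 327 and 336 after 6 h. The lines overlapped at 0 h and were separate from 2 h on, and 4 h was the time with a call (log2 0.47, adjusted p = 0.013). The call on the mean was lost without the 4 h libraries (0.15, 0.163) or the 6 h libraries (0.20, 0.055), and the value was larger without the 0 h libraries (0.37, 1.47e-06). At 4 h the adjusted p rose to as much as 0.0728, past the threshold, when any one of control 4 h replicate 1 and ZC3H7B-OE 4 h replicates 2 and 3 was left out.

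MXD4, a further MXD repressor of MYC target genes, measured 263 ± 74.0 CPM in control and 245 ± 58.9 CPM in ZC3H7B-OE (SD, n = 12; log2 -0.11, 95% interval -0.26 to 0.04, edgeR adjusted p = 0.264). Without control 0 h replicate 3, where MXD4 read 190 CPM against 309 and 402 in the other two, the value was -0.17 with an adjusted p of 0.00878, and without all 0 h libraries it was called as well (-0.15, 0.0466). It was -0.05 (0.627) without control 0 h replicate 2 and -0.03 (0.801) without the 2 h libraries. MXI1, the MXD protein known for its induction under hypoxia, read 111 ± 19.0 CPM in control and 111 ± 28.6 CPM in ZC3H7B-OE (log2 -0.03, interval -0.20 to 0.14, adjusted p = 0.783). At 0 h MXI1 held 71.5, 92.7 and 126 CPM in control and 73.3, 79.2 and 63.5 CPM in ZC3H7B-OE, which overlap. At 4 h the ZC3H7B-OE libraries, at 138, 129 and 129 CPM, were all above the control libraries, at 126, 113 and 105 CPM, without a call (log2 0.21, adjusted p = 0.436). The 0 h difference of -0.40 (adjusted p = 0.094) was called without control 0 h replicate 1 (-0.58, 0.0184) and was -0.18 (0.519) without control 0 h replicate 3.

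MLX, the common partner of MLXIP and of several MXD proteins, measured against MLXIP in direction, on reads that are uncertain. In control it read 518, 460 and 757 CPM at the end of the pulse, 499, 510 and 466 after 2 h of chase, 392, 369 and 414 after 4 h, and 392, 364 and 387 after 6 h. In ZC3H7B-OE it read 481, 479 and 442 CPM at the end of the pulse, 491, 439 and 443 after 2 h of chase, 363, 338 and 386 after 4 h, and 313, 308 and 294 after 6 h. The lines overlapped at 0, 2 and 4 h and were separate at 6 h, where every ZC3H7B-OE library was lower. The mean difference was -0.21 log2 units (SE 0.07, edgeR adjusted p = 0.00955), and no single time was called. At 0 h the value was called by DESeq2 (adjusted p = 0.0487) and by edgeR without any one of 5 libraries, with control 0 h replicate 2 giving the lowest adjusted p (-0.44, 0.0117). Without control 0 h replicate 3, which held the 757 CPM, it was -0.07 (0.74). Without the 6 h libraries it was -0.17 with an adjusted p of 0.118.

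**Figure D2:**
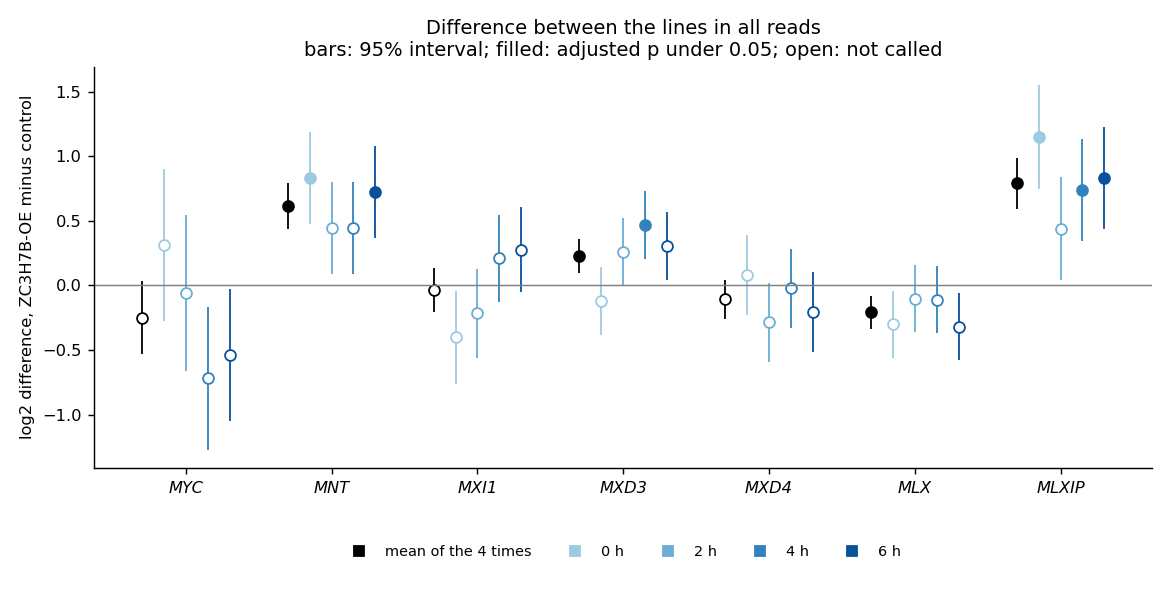
Fitted log2 difference of ZC3H7B-OE minus control in all reads for the 7 tested members, as the mean of the 4 times (black) and at 0, 2, 4 and 6 h (light to dark blue), with 95% intervals; filled points had an adjusted p under 0.05. MLXIP and MNT lie above 0 at each time, and MYC runs from 0.31 at 0 h to -0.72 at 4 h and -0.54 at 6 h.

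MYC, the activator at the centre of the network, had few reads, 17 to 90 per library. Its control libraries held 11.3, 19.0 and 15.6 CPM at the end of the pulse, 14.3, 10.8 and 16.1 after 2 h of chase, 18.2, 17.4 and 18.3 after 4 h, and 28.8, 22.7 and 25.7 after 6 h. The ZC3H7B-OE libraries held 16.6, 15.5 and 24.8 CPM at the end of the pulse, 17.8, 11.8 and 10.2 after 2 h of chase, 13.9, 7.77 and 10.9 after 4 h, and 18.4, 17.8 and 16.8 after 6 h. The lines overlapped at 0 and 2 h, and at 4 and 6 h each ZC3H7B-OE library was below each control library. None of the line differences of MYC passed the test: the log2 difference was -0.25 over all times (SE 0.14, interval -0.53 to 0.03, edgeR adjusted p = 0.157). It was 0.31 at the end of the pulse (0.446) and -0.06 after 2 h (0.946), and then -0.72 after 4 h (0.0748) and -0.54 after 6 h (0.164). At 4 h, DESeq2 called it (adjusted p = 0.0432), as did limma-voom (0.0495) and edgeR without ZC3H7B-OE 4 h replicate 1 (log2 -0.94, adjusted p = 0.0451). The mean over times depended on which were included: without the 0 h libraries it was -0.42 (adjusted p = 0.0314), without the 4 h libraries -0.09 (0.698) and without the 6 h libraries -0.15 (0.549).

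At single times the members called were MLXIP and MNT of 7 at 0 h (2 of 7, with 31.2% of entries called and 11.7% called higher), 0 of 7 at 2 h (9.46% of entries called), MLXIP and MXD3 at 4 h (2 of 7, with 17.7% called and 6.85% higher), and MLXIP and MNT at 6 h (2 of 7, with 15.8% called and 6.52% higher). All of these were higher in ZC3H7B-OE. At 2 h, where edgeR, DESeq2 and limma-voom each called 0, MNT and MLXIP had an unadjusted p under 0.05. Without control 0 h replicate 3, the library that stood apart, 4 further values were called: MLXIP at 2 h (0.44, adjusted p = 0.00325), MNT at 4 h (0.45, 0.0320), MXD3 at 6 h (0.29, 0.0296) and MLX at 6 h (-0.33, 0.00688). Fits on the 6 libraries of a single time, which lost the 0 h calls of MLXIP and MNT, added calls for MLXIP at 2 h (0.43, 0.0115), MNT at 4 h (0.47, 0.0262), and MXD3 (0.34, 0.00285), MLX (-0.28, 0.00579) and MXI1 (0.32, 0.0358) at 6 h. A change of the line difference along the chase was tested directly as an interaction (edgeR, 3 degrees of freedom), which called 1.73% of entries and 0 of 7 members. Among the members, MXI1 (adjusted p = 0.214) and MXD3 (0.21) had an unadjusted p under 0.05, and MYC had an adjusted p of 0.312. The spread of these values along the chase was therefore not shown to differ between the lines. MLXIP was the exception in 1 setting, with an adjusted p of 0.0418 without control 0 h replicate 2.

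The remaining 3 members were close to absent from the tables. MAX, without which MYC does not bind DNA, had 5 reads in all 24 libraries: 1 in control 2 h replicate 3, 2 in control 4 h replicate 3 and 2 in ZC3H7B-OE 2 h replicate 2. MGA, the very large MAX partner of the Polycomb-like complex, had 1 read, and MYCN, the neuronal and embryonal relative of MYC, had 28 reads spread over 12 libraries, with at most 5 in one. A library without a read allows up to 3 reads, or 0.816 CPM in the deepest and 2.00 CPM in the shallowest library, counting error only. No line or time difference was detectable at this depth for these 3 genes. How reads were assigned to genes is not given in the sources used here, and its part in the near absence of MAX and MGA reads was not tested.

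Levels also changed along the chase itself, together with depth, and the part of depth was not tested. Between 0 and 6 h in control, 5 of 7 members were called, MYC higher and MNT, MXD3, MXD4 and MLX lower, where 60.6% of entries were called (30.7% higher, 29.9% lower). In ZC3H7B-OE, 6 of 7 members were called, MXI1 higher and MNT, MXD3, MXD4, MLX and MLXIP lower, where 63.4% of entries were called (32.8% higher, 30.6% lower). The members' medians were -0.58 and -0.62 log2 units, against -0.05 and -0.08 over all entries. MNT, MXD3, MXD4 and MLX fell in both lines.

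For MYC the rise in control was 0.76 log2 units (SE 0.28, edgeR adjusted p = 0.0215), from 15.3 ± 3.86 to 25.7 ± 3.03 CPM (SD, n = 3), with every 6 h library above every 0 h library. In ZC3H7B-OE the value was -0.09 (SE 0.28, adjusted p = 0.781), from 19.0 ± 5.13 to 17.7 ± 0.819 CPM. That control difference missed the threshold without control 0 h replicate 1 (0.57, adjusted p = 0.13), without control 6 h replicate 1 (0.68, 0.0671) and without the filter on low counts (0.051). MXI1 gave the opposite picture: it rose in ZC3H7B-OE by 0.89 log2 units (SE 0.18, adjusted p = 6.03e-05), from 72.0 ± 7.91 to 133 ± 24.5 CPM, and measured 0.21 in control (adjusted p = 0.314), which became a call without control 0 h replicate 3 (0.44, 0.0185). The difference between the lines in these changes is part of the interaction above, in which neither gene was called.

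Among the repressors that fell, MXD3 dropped by 1.22 log2 units in control (SE 0.14, edgeR adjusted p = 2.23e-09) and by 0.79 in ZC3H7B-OE (SE 0.13, 5.19e-06). MNT fell by 0.82 (adjusted p = 0.000334) and 0.93 (3.22e-05) in the same order, and MXD4 by 0.58 (0.00206) and 0.86 (1.81e-05), so that MXD3 had the largest of the 3 values in control and the smallest in ZC3H7B-OE. For MXD4 the control call was lost without control 0 h replicate 2 (-0.30, 0.0994). MLX fell by 0.60 (0.000238) in control and by 0.62 (0.000161) in ZC3H7B-OE, and its control value was -0.35 (0.00484) without control 0 h replicate 3. MLXIP measured -0.23 in control (adjusted p = 0.348), a value that ran from 0.13 without control 0 h replicate 2 to -0.52, a call, without control 0 h replicate 3. In ZC3H7B-OE MLXIP fell by 0.54 (adjusted p = 0.0204), which was no longer called without ZC3H7B-OE 0 h replicate 1, ZC3H7B-OE 0 h replicate 3 or ZC3H7B-OE 6 h replicate 1 (adjusted p up to 0.0663).

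The label separated old from new MYC mRNA within these levels. Of the MYC reads in control, 22 of 23, 32 of 35 and 14 of 17 were labelled at the end of the pulse, 9 of 28, 13 of 20 and 21 of 30 after 2 h of chase, 1 of 58, 3 of 45 and 10 of 48 after 4 h, and 2 of 85, 3 of 65 and 10 of 90 after 6 h. In ZC3H7B-OE they were 26 of 28, 29 of 32 and 38 of 43 at the end of the pulse, 7 of 31, 10 of 22 and 6 of 20 after 2 h of chase, 6 of 42, 1 of 21 and 1 of 30 after 4 h, and 6 of 62, 4 of 63 and 0 of 46 after 6 h. Nearly all MYC reads were thus labelled at the end of the pulse and few were by 4 h, in both lines. The mean labelled share was 89.8% ± 6.80, 55.7% ± 20.6, 9.74% ± 9.92 and 6.03% ± 4.55 at 0, 2, 4 and 6 h for control libraries, and 90.6% ± 2.24, 32.7% ± 11.7, 7.46% ± 5.95 and 5.34% ± 4.92 in ZC3H7B-OE (SD, n = 3). With the reads of 3 libraries pooled, exact 95% binomial intervals at 2 h were 43.4% to 66.4% in control and 21.1% to 43.4% in ZC3H7B-OE (counting error only). The single libraries overlapped at 2 h, with control replicate 1 at 9 of 28 reads among the ZC3H7B-OE values.

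Over the same hours unlabelled MYC reads increased in both lines. They went from 1.62 ± 1.13 to 24.2 ± 3.43 CPM in control and from 1.84 ± 0.918 to 16.7 ± 0.0891 CPM in ZC3H7B-OE between 0 and 6 h (SD, n = 3). At 6 h the ZC3H7B-OE libraries were all below the control libraries. The MYC mRNA counted at 6 h was therefore almost all read without a conversion, and the separation of the lines in all reads at 4 and 6 h lay in unlabelled reads. Unlabelled reads alone were given no test.

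**Figure D3:**
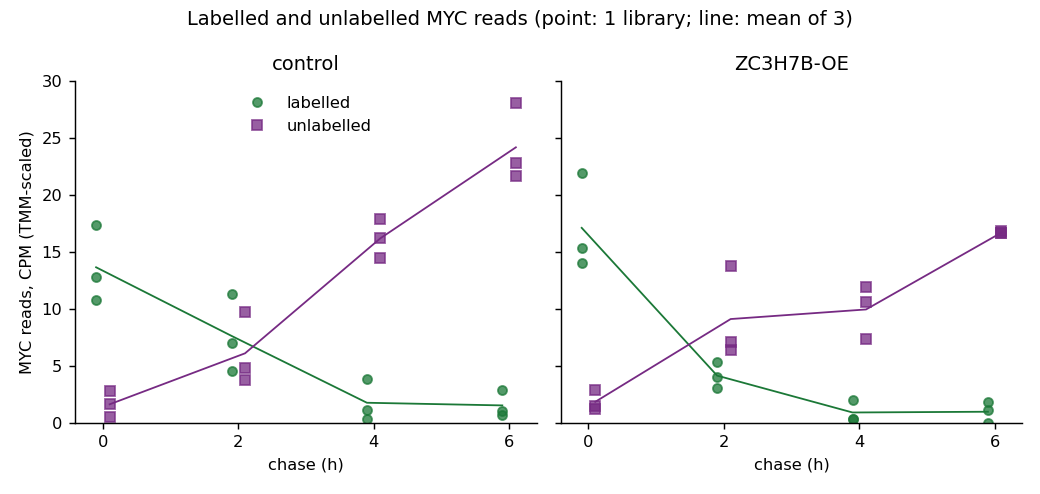
Labelled (green circles) and unlabelled (purple squares) MYC reads in CPM against hours of chase, in control and ZC3H7B-OE, with 1 point per library and lines through the means of 3. Labelled reads fall to below 5 CPM by 4 h in both lines while unlabelled reads rise, to a mean of 24.2 CPM in control and 16.7 CPM in ZC3H7B-OE at 6 h.

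The odds of a MYC read being labelled fell by 3.59 log2 units between 0 and 2 h as the mean of the lines (SE 0.57, edgeR adjusted p = 6.27e-08), and by 7.17 between 0 and 6 h (SE 0.56, 2.36e-23). These odds compare labelled with unlabelled reads of the same gene and library, so the gene's level drops out. In the first 2 h, 2 of 7 members were called, MYC and MXI1, both lower, where 35.5% of entries were called and 33.5% were lower. The median over all entries was -0.68, and 4.42% of entries had a lower value than MYC. MXI1 fell by 1.91 (SE 0.25, adjusted p = 6.14e-11), while MLX (-0.55, 0.0611), MNT (-0.54, 0.136), MLXIP (-0.21, 0.319), MXD4 (-0.11, 0.662) and MXD3 (0.35, 0.324) were not called. MLX was called in this contrast without the filter on low counts (0.0259), without control 0 h replicate 1 (-0.74, 6.36e-05) and without control 0 h replicate 3 (-0.31, 0.0274), and MNT without control 0 h replicate 2 (-0.98, 0.0112).

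By 6 h the labelled odds of 7 of 7 members had fallen, where 84.5% of entries were called and 84.3% were lower. After MYC came MXI1 at -5.12, MNT at -3.74, MLXIP at -3.09, MLX at -2.80, MXD4 at -2.53 and MXD3 at -0.82 (SE 0.22, 0.26, 0.14, 0.23, 0.14 and 0.29, respectively), with a median of -3.97 over all entries. MYC and MXI1 were thus the members below that median, and the other 5 lay above it. The fall of MXD3 missed the threshold without control 6 h replicate 3 (-0.63, edgeR adjusted p = 0.0514). Neighbours from MNT to MXD4 in this order differ by about their standard errors or a few times them, and differences between genes were not tested.

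Labelled shares give the same reads as percentages. MXI1 began at 91.1% ± 4.16 labelled in control and 93.6% ± 0.885 in ZC3H7B-OE, stood at 78.0% ± 2.71 and 75.3% ± 5.74 at 2 h, and ended at 31.0% ± 2.81 and 21.8% ± 2.26 at 6 h (SD, n = 3). MNT held 87.8% ± 8.45 and 90.4% ± 1.40 at 0 h, still 86.4% ± 1.72 and 82.0% ± 2.37 at 2 h, and 29.6% ± 4.31 and 44.7% ± 2.93 at 6 h. MLXIP went from 85.5% ± 5.51 and 88.4% ± 0.698 to 44.4% ± 5.49 and 46.5% ± 1.21. MXD4 kept the highest shares at 6 h, 48.5% ± 1.21 in control and 60.1% ± 4.28 in ZC3H7B-OE, after 89.1% ± 2.88 and 86.0% ± 1.99 at 0 h. At 6 h the libraries of the lines did not overlap for MNT and MXD4, which were higher in ZC3H7B-OE, nor for MXI1, which was lower there. The share of all entries that separated in this way was not counted. The line difference in labelled odds was tested as the mean of the 4 times and not at 6 h alone.

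**Figure D4:**
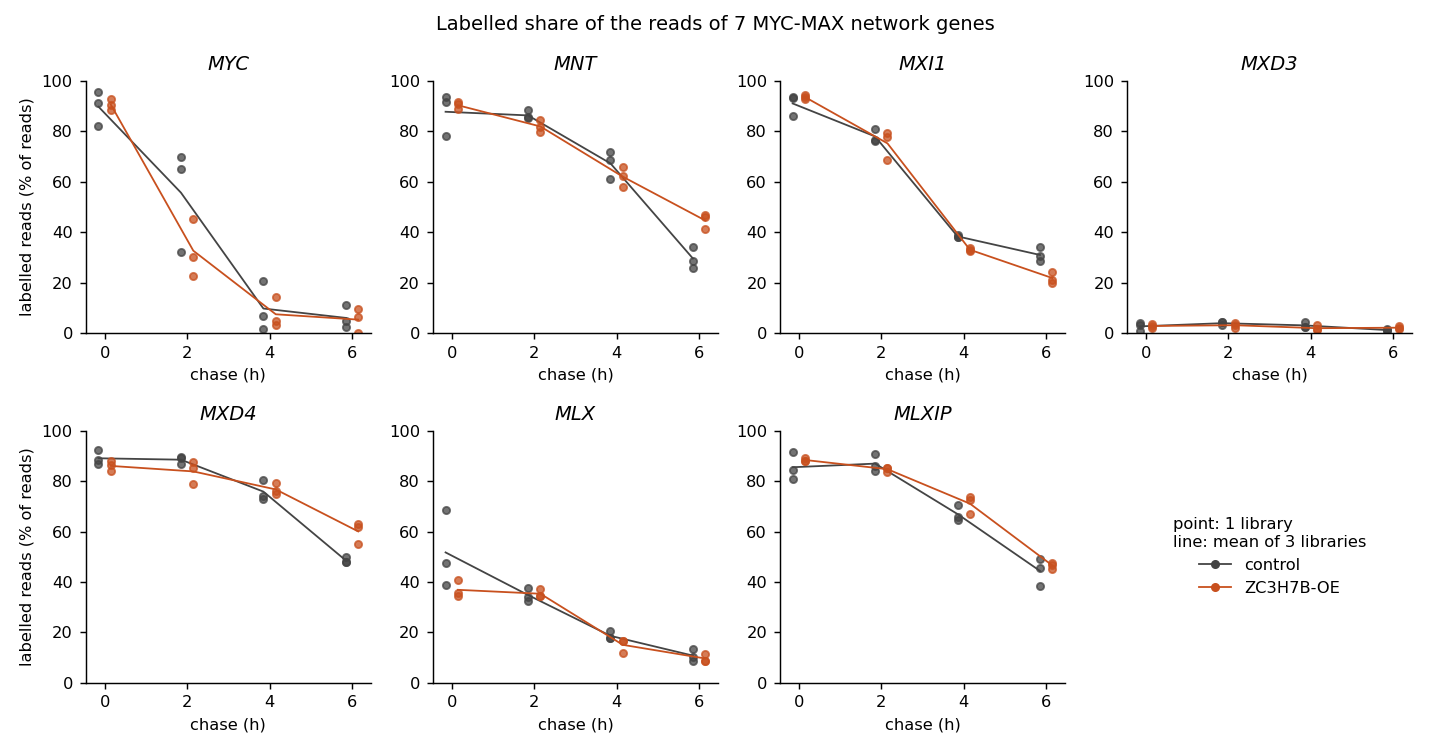
Labelled reads as a percent of all reads of each tested member (0 to 100%) against hours of chase, with 1 point per library and lines through the means of 3, control in grey and ZC3H7B-OE in orange. MYC is at 89.8% and 90.6% at 0 h and under 10% in the means at 4 h, MNT, MXD4 and MLXIP change little until 2 h, MLX starts near 50% or below, and MXD3 stays near 0.

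As the mean of the 4 times, the labelled odds of 0 of 7 members differed between the lines at an adjusted p under 0.05, where 10.2% of entries were called. The values were -0.40 for MYC (95% interval -1.22 to 0.42), -0.34 for MLX (-0.66 to -0.02), -0.19 for MXI1, -0.04 for MXD3, -0.03 for MXD4, 0.09 for MLXIP and 0.17 for MNT, with edgeR adjusted p-values from 0.238 for MLX to 1 for MXD3. MLX had an unadjusted p under 0.05 and was called without control 0 h replicate 1 (-0.44, 0.00391). The higher levels of MLXIP and MNT in ZC3H7B-OE were thus measured without a detected difference in this mean of their labelled odds. Its intervals were -0.10 to 0.28 for MLXIP and -0.20 to 0.53 for MNT. The mean includes 0 and 2 h, when most reads of both genes were still labelled, so it can miss a later difference.

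Loss of labelled reads was also fitted as a slope over hours, with labelled reads scaled to all reads of the library. In control 7 of 7 members had a negative slope that was called (77.6% of entries called, 75.6% lower), and in ZC3H7B-OE 7 of 7 (74.8% called, 72.7% lower). MYC had the steepest slopes among the members, -0.57 log2 units per h in control (SE 0.11) and -0.76 in ZC3H7B-OE (SE 0.11), equal to half-lives of 1.75 and 1.32 h. Of all 8490 entries tested, 2.61% had a steeper slope than MYC in control and 0.283% in ZC3H7B-OE. The medians over entries were -0.26 and -0.24, or 3.84 and 4.14 h. Such a half-life describes labelled reads relative to all reads, so growth and new mRNA enter it. It also averages over the first 2 h, in which MNT, MXD4 and MLXIP had lost little label. With labelled reads scaled to the library's labelled total instead, MYC (-0.35 and -0.55), MLX (-0.26 and -0.22) and MNT (-0.15 and -0.10) kept called negative slopes in control and ZC3H7B-OE, and those of MXD3, MXI1, MXD4 and MLXIP were not called in either line, with 4 of these 8 values above 0.

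MLX came second among the members, with a control slope of -0.50 (half-life 2.00 h) and a ZC3H7B-OE slope of -0.47 (2.14 h). Labelled odds, in which the gene's level drops out, gave another order. From 0 to 6 h MLX lay above the median of all entries there, and MXI1 came after MYC. Of the MLX reads in all libraries 25.3% were labelled, and the reads counted for MLX are uncertain. MNT had slopes of -0.40 and -0.34 (2.53 and 2.94 h). MXD3 stood at -0.36 and -0.22 (2.80 and 4.64 h), on 6 to 42 labelled reads per library, or 2.55% of its reads in all libraries. Whether the slopes of MLX and MXD3 follow their own mRNA was not tested. MXI1 stood at -0.27 and -0.23 (3.74 and 4.29 h), MXD4 at -0.26 and -0.23 (3.81 and 4.33 h), and MLXIP at -0.23 and -0.24 (4.42 and 4.18 h). The last 3 lay within their standard errors of the medians over all entries. A difference in slope between the lines was called for 0 of 8490 entries (0%) and 0 members by edgeR, while 477 entries and no member had an unadjusted p under 0.05. The interval of the difference was -0.49 to 0.12 log2 units per h for MYC, -0.06 to 0.34 for MXD3 and within -0.14 to 0.19 for the other 5. No other tool was run on slopes. The order of the slopes depended on the times fitted. Over 2 to 6 h alone, MNT (-0.61), MYC (-0.61), MXD3 (-0.54) and MLX (-0.53) were the steepest in control, followed by MXD4 (-0.41), MLXIP (-0.39) and MXI1 (-0.39). In ZC3H7B-OE over those hours MLX (-0.63) was steeper than MYC (-0.54), and the other 5 lay between -0.39 and -0.25. Each of these 14 slopes was called. Half-lives in control then shortened to 1.63 h for MNT, 2.46 h for MXD4 and 2.54 h for MLXIP. In ZC3H7B-OE they were 2.60, 3.45 and 3.78 h in that order. The MNT difference in slope over those hours was 0.227 log2 units per h and was not called.

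**Figure D5:**
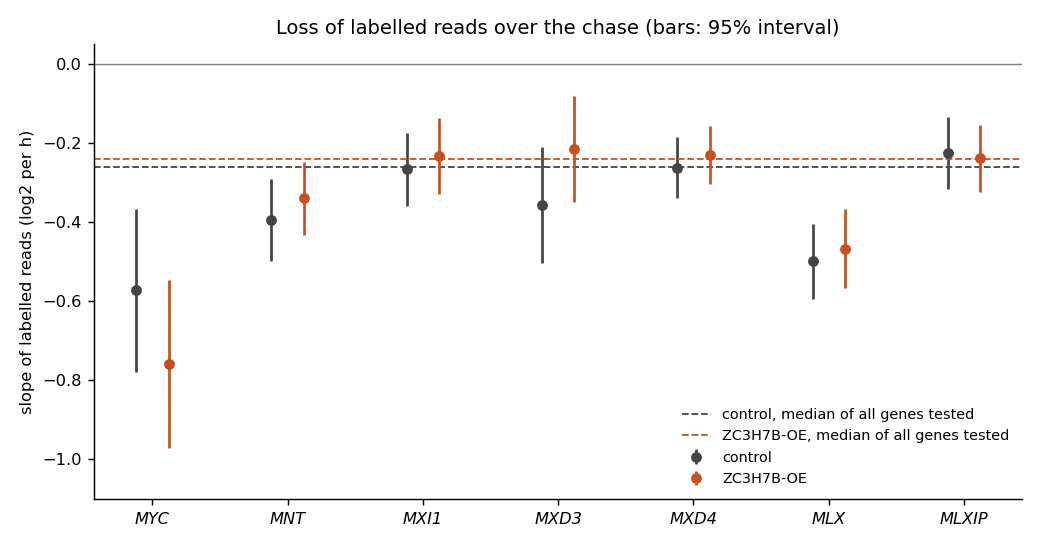
Fitted slope of labelled reads in log2 units per h for the 7 tested members, control in grey and ZC3H7B-OE in orange, with 95% intervals, and dashed lines at the medians over all entries tested. MYC, MLX and MNT lie below the medians of -0.26 and -0.24 in both lines, and the intervals of the 2 lines overlap for each member.

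The labelled share at 0 h set MXD3 and MLX apart from the other 5 members. With both lines pooled, 90.4% of MYC reads, 92.4% of MXI1 reads, 88.9% of MNT reads, 88.0% of MLXIP reads and 87.0% of MXD4 reads were labelled, around the median of 87.2% over 8206 genes with at least 50 reads. For MLX the share was 44.1%, and for MXD3 2.76%, below all but 7.87% and 2.10% of those genes. In the GENCODE v29 annotation (GRCh38), exons of MXD3 overlap those of PRELID1 on the opposite strand and RAB24 on its own, and exons of MLX overlap those of PSMC3IP on the opposite strand. Of 747 genes with a share under 50%, 43.0% overlapped a coding exon on the opposite strand, against 14.7% of 7305 other genes. Use of strand in counting is not given in the sources used here, so the reads counted for MXD3 and MLX, and with them all their values above, are uncertain. The part of the overlap in their shares was not tested.

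Values of the neighbours stand beside these. PRELID1, a mitochondrial lipid-transfer protein gene, had labelled shares at 0 h of 82.8% ± 2.71 (control) and 79.7% ± 3.41 (ZC3H7B-OE; SD, n = 3), in contrast to MXD3 on the other strand. PSMC3IP, a recombination factor gene, was 57.9% ± 17.4 and 64.9% ± 4.29 labelled. In control 0 h replicate 3, the library that stood apart, 565 of 825 MLX reads were labelled, against 39.0% and 47.7% in the other two, and 127 of 335 PSMC3IP reads. The MLX share of the control line at 0 h, 51.7% ± 15.2, therefore rests on that library, while ZC3H7B-OE gave 36.9% ± 3.30.

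Sequence features that the choice of genes did not use were read from GENCODE v29 transcripts (GRCh38), 1 per gene. The share of codons ending in G or C was above the median of 59.5% over tested genes in all 7 tested members, from 61.4% in MXI1 to 84.2% in MXD4, with MYC at 76.5%, MNT at 74.9% and MLXIP at 76.7%. Of the members that were hardly read, MGA was at 37.4%, MAX at 65.0% and MYCN at 80.2%. In the 3′ UTR, MYC had 37.6% T, more than 94.4% of tested genes, while MXD4 had 20.5% and MNT 21.8%, against a median of 29.8%. The AU-rich pentamer ATTTA occurred 4 times in the MYC and MXI1 3′ UTRs and not in those of MNT and MXD4, and 70.4% of tested genes had at least 1. No member had the nonamer TTATTTATT, which 8.71% did. MLXIP had 3 copies of ATTTA, MLX 2 and MXD3 1, and MGA also had 4, and 64.5% of tested genes had fewer than 4, so the count did not set MYC and MXI1 apart.

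Genes around the network were taken from lists of regulators and targets, with counts for the mean of the 4 times. The family members outside the 10, MYCL, MXD1 and MLXIPL, were tested, and 0 of 3 were called (edgeR adjusted p from 0.0843 for MLXIPL to 0.81 for MYCL); MLXIPL, the ChREBP glucose sensor, had a log2 difference of 0.66 (SE 0.32) from at most 28 reads per library. Both MLXIP targets were tested: ARRDC4, an arrestin-domain protein that limits glucose uptake, was lower by 0.22 log2 units (SE 0.08, edgeR adjusted p = 0.0204), and TXNIP, its relative, stood at -0.07 (0.517). The ARRDC4 call was lost without the filter on low counts, without the 2 h libraries and without the 4 h libraries, and ARRDC4 was called at no single time. TXNIP was called lower after 2 h (-0.62, 0.00873) and measured 0.29 after 4 h (0.209). Along the chase ARRDC4 rose from 29.5 ± 3.79 to 201 ± 14.2 CPM in control and from 25.8 ± 3.79 to 188 ± 18.8 CPM in ZC3H7B-OE (SD, n = 3), by 2.78 and 2.86 log2 units (adjusted p = 2.44e-15 and 6.1e-16). TXNIP did not pass the test along the chase in either line (-0.02 and 0.11).

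Of 50 tested genes widely described as MYC-activated, 17 were higher and 9 lower in ZC3H7B-OE, with a median of 0.20 against 0.01 over all entries. The share called, 26 of 50, was near the 45.8% of all entries. NOP2, an rRNA methyltransferase, was higher by 0.62 log2 units (SE 0.07, edgeR adjusted p = 1.11e-08) and GRWD1, a ribosome assembly factor, by 0.53 (SE 0.08). PRMT3, an arginine methyltransferase, was lower by 1.59 (SE 0.22), from 12.5 ± 5.87 to 4.74 ± 3.43 CPM (SD, n = 12), and NDUFAF4, a mitochondrial assembly factor, by 0.52 (SE 0.08). After 2 h NDUFAF4 was not called (-0.04). Between 0 and 6 h the list had 11 higher and 30 lower genes in control and 11 higher and 26 lower in ZC3H7B-OE. Of all entries, 30.7% were called higher and 29.9% lower in control, and 32.8% and 30.6% in ZC3H7B-OE. The list's medians were -0.80 and -0.73, against -0.05 and -0.08 over all entries.

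Of 8 tested MYC-repressed genes, 1 was higher and 4 were lower in ZC3H7B-OE, against 20.4% and 25.4% of all entries, with a median of -0.30. CDKN1A, the p21 inhibitor of cyclin-dependent kinases, was lower by 1.20 log2 units (SE 0.08), from 301 ± 157 to 125 ± 50.4 CPM (SD, n = 12). The stress gene GADD45A was lower by 0.65 (SE 0.08), the p15 inhibitor gene CDKN2B by 0.58 (SE 0.07) and GADD45B by 0.45 (SE 0.07). Each of these 4 had an edgeR adjusted p under 0.05 in the mean of the 4 times. GADD45B was called lower at 0 and 2 h, and not after 4 h (-0.32) or 6 h (0.15).

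Among proteins that work with the network, 16 tested MYC coactivators and cofactors had 10 higher and 1 lower in ZC3H7B-OE, against 20.4% and 25.4% of all entries, with a median of 0.36. HCFC1, a host cell factor that binds MYC, was higher by 0.60 log2 units (SE 0.10) and KAT2A, the GCN5 acetyltransferase, by 0.52 (SE 0.08), while CCNT1, the cyclin of P-TEFb, was lower by 0.31 (SE 0.06). Of 12 tested SIN3-HDAC and NCOR corepressors, the partners of MNT and the MXD proteins, 3 were higher and 3 lower (median 0.09), a share called near the 45.8% of all entries. SAP18 was lower by 0.78 (SE 0.06) and the deacetylase HDAC2 by 0.65 (SE 0.08), while BRMS1 was higher by 0.35 (SE 0.10). After 6 h HDAC2 was not called (-0.10). Of 10 tested partners of MGA in its Polycomb-like complex, 1 was higher, RING1 by 0.35 (SE 0.09), and 4 were lower (median -0.10; 45.8% of all entries were called), among them TFDP1 by 0.67 (SE 0.06), RYBP by 0.60 (SE 0.07) and YAF2 by 0.66 (SE 0.18).

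Of 16 tested genes for MYC protein turnover, 5 were higher and 3 lower (median -0.03), again near the 45.8% of all entries called. The kinase gene GSK3A was higher by 0.41 log2 units (SE 0.07), and the ubiquitin ligase genes STUB1 and HUWE1 by 0.32 (SE 0.07) and 0.51 (SE 0.12). Of 14 tested RNA-binding proteins described on MYC mRNA, 4 were higher and 5 lower (median 0.05), against 20.4% and 25.4% of all entries. KHSRP, which binds AU-rich elements, was higher by 0.49 (SE 0.07), and HNRNPK, IGF2BP3 and TIAL1 were lower by 0.62 (SE 0.07), 0.60 (SE 0.10) and 0.32 (SE 0.07). Every gene named in this and the previous paragraph passed edgeR's adjusted threshold of 0.05 in the mean of the 4 times.

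The genes whose levels most resembled MYC over the 24 libraries were found among the 4581 entries whose log2 CPM averaged 5 or more. They were IER5 (Pearson r = 0.73), ARHGEF2 (0.72), CDKN2B (0.71), BTG2 (0.70) and G3BP1 (0.70), given as a description, since the 24 libraries share 8 groups and the MYC values rest on 17 to 90 reads each. IER5, an immediate early gene, went from 164 to 256 CPM between 0 and 6 h in control and from 184 to 205 CPM in ZC3H7B-OE. BTG2, an antiproliferative gene, went from 35.1 to 75.1 CPM in control and from 38.5 to 36.5 CPM in ZC3H7B-OE.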

How the data were processed

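The 2 tables deposited by the authors hold whole-number read counts per gene entry for 24 libraries, one for all reads and one for reads carrying T-to-C conversions. Neither is normalized. Tools named in the submitters' processing notes are fastp (version not stated) and the build GRCh37; aligner, conversion caller and the way of counting are not given in the sources at hand. Per the labels' protocols, polyA RNA went into a directional library kit. Counts were fitted in edgeR 4.0.16 (R 4.3.3; quasi-likelihood, robust, TMM scaling, filterByExpr with a minimum count of 10) on all 24 libraries with a mean per group. P-values were adjusted (Benjamini-Hochberg) over 10038 entries, or 8490 for labelled reads. For slopes, labelled reads took library sizes and TMM factors from all reads. Labelled odds were fitted on labelled and unlabelled reads of each library with a term per library. Levels are TMM-scaled CPM. Shares carry exact binomial intervals, and floors are 3 counts; PCR reads are not independent molecules, so both cover counting error only. The test scripts were first tested on simulated data. DESeq2 1.42.0 and limma 3.58.1 were alternatives, besides other scaling, no filter, left-out libraries and times, and a replicate block.

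The members and gene lists were chosen with earlier results of these data known. All 10 members are named. From each list the text names up to 4 genes with the smallest adjusted p among those called in the mean of the 4 times. For MYC it names the 5 genes with the highest correlation. TXNIP, MYCL and MLXIPL, and PRELID1, RAB24 and PSMC3IP, were added after their values were seen. Values of 3 genes that this rule selects are not reported here.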

Additional observations from a re-analysis of the deposited data

Results flagged for a closer look

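Among 41 named genes tested, 3 genes of the lists, and no member, had a line difference that changed along the chase (edgeR interaction test). Over all entries 1.73% were called. The list genes had been named for small adjusted p-values between the lines in these same libraries, so the count is a description only. HDAC2 differed by -1.11 log2 units at 0 h (SE 0.16) and by -0.10 after 6 h (interaction adjusted p = 0.0392). GADD45B differed by -0.67 at 0 h, -0.96 after 2 h and 0.15 after 6 h (0.00851). NDUFAF4 differed by -1.07 at 0 h, -0.04 after 2 h and -0.49 after 4 and 6 h (0.0487).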

How the results depend on the processing

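MYC, with 17 to 90 reads per library, is limited by depth, MAX, MGA and MYCN cannot be compared, and MXD3 and MLX share exons with genes on the other strand. Fitted on the 6 libraries of 1 time alone, the counts of entries called were 791 at 0 h, 3104 at 4 h and 3286 at 6 h, against 3136, 1776 and 1583. Without the filter on low counts 942 entries had a called interaction, against 174. With library sizes of labelled reads, 3126 slopes were called in control and 2501 in ZC3H7B-OE, against 6586 and 6353, and 2 differences in slope against 0. In that scaling the slopes of MLXIP in control (0.0227) and of MXI1 (0.00779), MXD4 (0.00543) and MXD3 (0.0200) in ZC3H7B-OE turned positive, none of them called. Over 2 to 6 h alone 63 differences in slope were called, and those of MLXIP (0.129), MLX (-0.0996) and MYC (0.0671) turned sign without a call. The mean difference of MXI1 turned to 0.114 without the 0 h libraries and 0.0406 without the 2 h libraries, and the 4 h difference of MXD4 to 0.00203 without the filter and 0.00113 in the fit on 6 libraries. Causes were not tested.

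Leaving out each of the 24 libraries in turn gave counts of 4353 to 4900 entries for the mean of the 4 times, 2131 to 3600 at 0 h, 575 to 1670 at 2 h, 1035 to 2839 at 4 h, 891 to 2669 at 6 h, 48 to 709 for the interaction and 0 to 1 for the difference in slope. Signs turned for 13 values that were not called with all libraries: in all reads, MXI1 in the mean (-0.0813 to 0.0179), MXD4 (-0.155 to 0.344) and MXD3 (-0.205 to 0.0633) at 0 h, MYC at 2 h (-0.336 to 0.101), MXD4 at 4 h (-0.0647 to 0.00525), MLXIP from 0 to 6 h in control (-0.524 to 0.130) and MYC likewise in ZC3H7B-OE (-0.226 to 0.147); in the difference in slope, MLXIP (-0.0280 to 0.0470) and MLX (-0.0371 to 0.0632); in labelled odds between the lines, MNT (-0.0504 to 0.269), MXD4 (-0.0821 to 0.0386) and MXD3 (-0.161 to 0.0629); and in labelled odds from 0 to 2 h, MXD4 (-0.207 to 0.0343).

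Replicate numbers did not pair the libraries: deviations of same-numbered libraries of one time correlated at -0.117 to 0.214 (12 pairs, 1 over 0.1), and 6 of 24 libraries correlated best with their own number. With the replicate number as a block, 4541 entries were called for the mean of the 4 times, against 4596, with MLXIP at 0.80, MNT at 0.61 and MYC at -0.25, and no member's call changed.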
